A study of Mus musculus with 3 samples.

Results

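The genes described here encode the metalloproteinases that cut extracellular matrix and shed cell-surface proteins, together with their tissue inhibitors, in cultured mouse mesenchymal stem cells (MSCs). They were chosen by name and not by level: every protein-coding gene whose symbol begins with Mmp, Adam or Timp and a digit, or with Adamts, was taken, which gave 84 of the 22032 protein-coding genes in a table of 43346 genes. The 84 comprised 23 genes of matrix metalloproteinases (MMPs), 33 of ADAMs, 19 of ADAMTS proteases, 5 of ADAMTS-like proteins and 4 of tissue inhibitors of metalloproteinases (TIMPs). The RNA came from a single group of 3 libraries, numbered 1 to 3, of adipose MSCs from C57BL/6 fat pads, grown in serum-supplemented medium. The animals were adult, no treatment, genotype change or depot is given, and it is not stated if different animals or culture dishes stand behind the 3 libraries, so their spread may be technical. With 1 group there was no contrast to test, and the results are levels, their order and their spread. The study as a whole concerns transplanted MSCs and narrowing of the vein in haemodialysis fistulas.

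MMPs are secreted or membrane-bound zinc proteases that are made as inactive precursors and that degrade collagens, gelatin, proteoglycans and basement membrane. ADAMs are membrane proteins of which many, but not all, are active sheddases that release growth factors, cytokines and receptors from the cell surface. ADAMTS proteases are secreted and act on proteoglycans, procollagens and other matrix proteins, and the ADAMTS-like proteins resemble them but lack the protease domain. TIMPs bind the active site of these enzymes, and stromal cells such as fibroblasts are a known source of both sides of this balance. Only RNA was measured here, so neither precursor activation nor inhibition by protein could be seen.

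All 10 MSC surface markers examined reached an RPKM of 1 in each library (RPKM is the read number scaled to gene-model length and library depth), from Itgb1 at 329 ± 13.0 to Nt5e at 1.15 ± 0.0916 (mean ± SD, n = 3, as for all such values below). Markers of other cell types were also measured. All 6 mesothelial markers and 6 of 9 macrophage markers reached that level, against 1 of 6 endothelial, 0 of 6 neutrophil and 0 of 4 general leukocyte markers. The mesothelial markers summed to 201, 183 and 186 RPKM in libraries 1, 2 and 3, the endothelial markers to 2.57 ± 0.105 with Cldn5 listed at 0, and the leukocyte markers to 0.994, 1.249 and 1.49. Their part in the levels described below was not tested, and in such bulk RNA fewer cells of a type and less RNA per cell cannot be told apart. The totals inferred from low values were 28844000, 33022000 and 32058000 reads for libraries 1, 2 and 3.

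34 of the 84 genes had an RPKM of 1 or more in all 3 libraries and are called detected. That is 40.5% of them, against 47.4% of protein-coding genes. The share was 3 of 4 for TIMPs, 3 of 5 for ADAMTS-like genes, 10 of 19 for ADAMTS genes, 9 of 23 for MMPs and 9 of 33 for ADAMs. The median level on the log2(RPKM + 1) scale was 0.44 ± 0.06 over the 84 genes and 0.85 ± 0.00 over all protein-coding genes. A few genes carried most of the summed level: the 4 highest made up 60.03% ± 0.776 of the RPKM of all 84, the 10 highest 86.1% ± 0.247, and the 50 undetected genes together 0.428% ± 0.0300. Of those 50, 21 were at or above the level of 3 reads in every library, 9 in only 1 or 2 libraries, 5 were seen below it, and 15 were listed at 0 throughout. Depending on the length of the gene, 3 reads corresponded to an RPKM of 0.00507 to 0.117, counting error only.

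**Figure D1:**
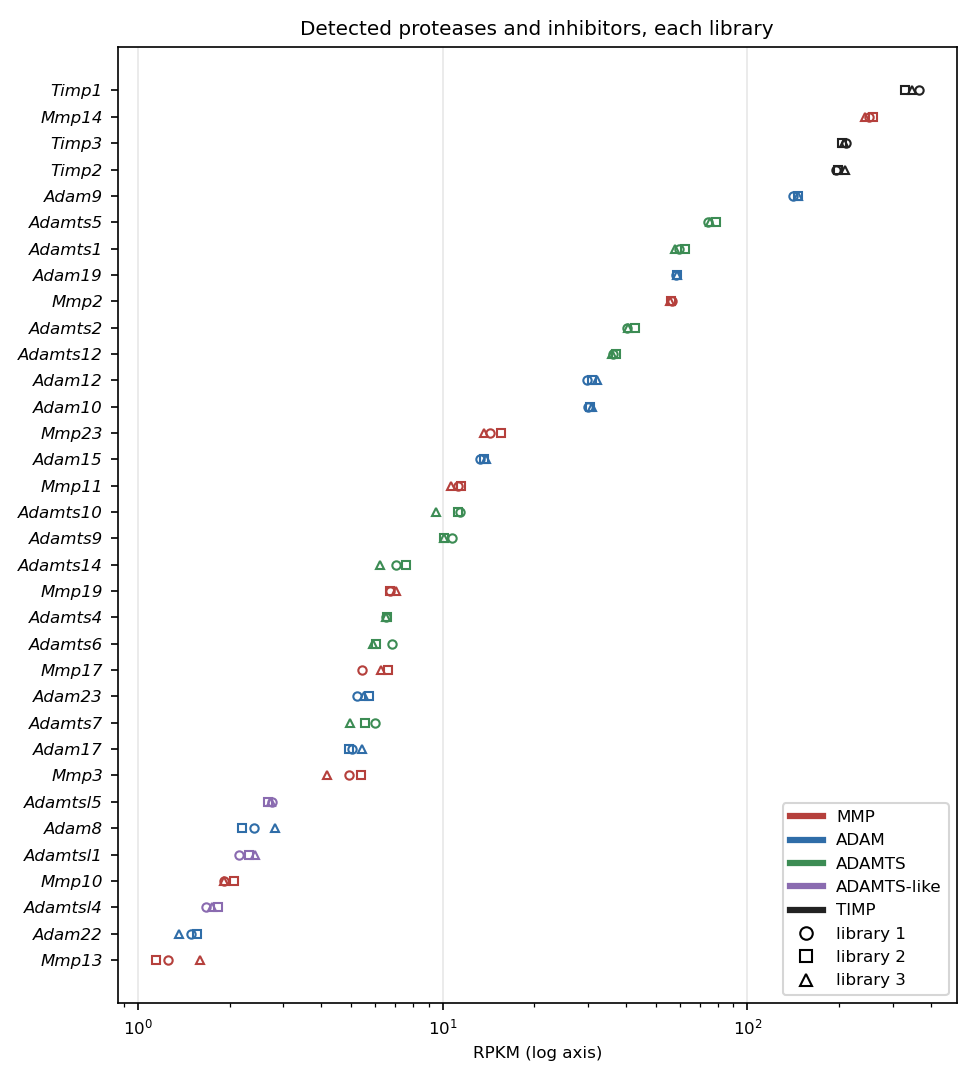
RPKM (log axis) of the 34 detected genes in each of the 3 libraries, ordered by mean and coloured by family. The 3 symbols of a gene lie close together compared with the distance from Timp1 at 347 to Mmp13 at 1.33.

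Of the 33 neighbouring pairs in the order of the 34 genes by RPKM, 17 had ranges over the 3 libraries that did not overlap and 16 had ranges that did. Timp1, Mmp14, Timp3 with Timp2, Adam9, Adamts5, and Adamts1 with Adam19 formed successive steps, where the genes joined by "with" overlapped each other. From Adamts4 down to Mmp3, each of the 6 neighbouring pairs overlapped, over means from 6.54 to 4.84. Within that stretch Mmp17 was above Adam23 in all 3 libraries although their ranges overlapped, and the other neighbours changed places in at least 1 library.

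The inhibitors stood at or near the top. Timp1, a secreted inhibitor induced by growth factors and cytokines, had 365, 329 and 346 RPKM in libraries 1, 2 and 3 (347 ± 18.1), which placed it at rank 62 of all protein-coding genes. Timp3, which binds to the matrix and also inhibits ADAM17 and the aggrecan-cleaving ADAMTS enzymes, had 211, 205 and 207 (208 ± 3.32). Timp2, which takes part in the activation of pro-MMP2 at the cell surface as well as in inhibition, had 195, 198 and 209.7 (201 ± 7.77). Timp1 was above the other inhibitors in each library, whereas Timp3 exceeded Timp2 in libraries 1 and 2 but not in library 3. Timp4, whose expression is known to be restricted to a few tissues, was listed at 0 in all 3 libraries, where 3 reads would have given 0.0154 to 0.0176. The inhibitor genes lie on chromosome X at 20870166 to 20874735 (Timp1), chromosome 11 at 118301069 to 118355740 (Timp2) and chromosome 10 at 86300372 to 86349506 (Timp3) of mm10. Timp1 and Timp3 each overlap a synapsin gene on the opposite strand. Timp3 shares 21.3% of its exon bases with Syn3, which stood at only 1.07, and Timp1 shares none with Syn1.

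The membrane-type protease gene Mmp14 was the most abundant protease RNA. Its product, MT1-MMP, cleaves fibrillar collagen around the cell and activates pro-MMP2. Mmp14 (chromosome 14, 54431612 to 54445364) had 250.1, 258 and 243 RPKM (250.2 ± 7.62), above Timp3 and Timp2 and below Timp1 in every library. Of the other membrane-type genes only Mmp17, which encodes an enzyme held by a lipid anchor, was detected, with 5.46, 6.63 and 6.27. Mmp15 at 0.566 ± 0.0387 and Mmp16 at 0.429 ± 0.0550 were present below the threshold, and Mmp24 and Mmp25 stood at 0.0556 ± 0.0363 and 0.0340 ± 0.0279. Mmp14 thus held 97.2% ± 0.238 of the summed level of the 6 membrane-type genes.

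The gelatinase genes were far apart. Mmp2 (chromosome 8, 92827291 to 92853420), whose product degrades gelatin and type IV collagen, had 56.7, 56.1 and 55.7 RPKM, one of the smallest relative spreads among the detected genes. Mmp9, typical of leukocytes and activated cells, had 0.0687, 0.137 and 0.106, from 7, 16 and 12 inferred reads. The components of the MT1-MMP, TIMP2 and pro-MMP2 complex were all among the 9 highest genes described here. Timp2 stood at 0.804 ± 0.0525 times Mmp14 and at 3.58 ± 0.168 times Mmp2, and the first of these ratios was 0.780, 0.768 and 0.864 in libraries 1, 2 and 3. Per length of the longest annotated coding transcript instead of the gene model, the first ratio was 0.459 ± 0.0300 and the second 3.43 ± 0.161.

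Apart from Mmp11, stromelysin, collagenase, matrilysin and metalloelastase genes were low. Most of their genes lie in a row on chromosome 9, where 10 MMP genes occupy 427 kb from 7272514 to 7699585 of mm10, in the order Mmp13, Mmp12, Mmp1b, Mmp3, Mmp1a, Mmp10, Mmp8, Mmp27, Mmp20 and Mmp7. Only 3 of the 10 were detected. Promoters of several such genes are known for a binding site of the transcription factor AP-1 close upstream of a TATA box. Sequences of the row are shown because most of its genes have this layout while their RNA levels differ, with Mmp8 as a gene that lacks the AP-1 motif. RefSeq promoter windows on GRCm38.p6, the assembly of mm10, from 250 bases before to 50 bases after the annotated start, were matched by symbol for 53 of the 84 genes and for all 10 of the row. The 100 bases before the start are printed 5′ to 3′ on the strand of the gene for 6 genes of the row, and for 3 high genes from elsewhere. Capitals mark the AP-1 motif TGANTCA, the TATA motif TATAAA and the GC-box motif GGGCGG, each searched on both strands. N stands for any base: the Mmp20 match is TGAATCA, whereas the other printed matches are TGAGTCA or TGACTCA.
Mmp3 (chr9:7445722-7445821, plus strand): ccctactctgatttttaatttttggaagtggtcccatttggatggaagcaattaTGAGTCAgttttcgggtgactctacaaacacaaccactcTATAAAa
Mmp10 (chr9:7502242-7502341, plus strand): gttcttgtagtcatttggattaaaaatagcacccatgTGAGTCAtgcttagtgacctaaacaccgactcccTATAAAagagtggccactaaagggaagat
Mmp13 (chr9:7272414-7272513, plus strand): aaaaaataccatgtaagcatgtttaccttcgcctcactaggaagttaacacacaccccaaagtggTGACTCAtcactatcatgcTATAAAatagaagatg
Mmp1a (chr9:7464041-7464140, plus strand): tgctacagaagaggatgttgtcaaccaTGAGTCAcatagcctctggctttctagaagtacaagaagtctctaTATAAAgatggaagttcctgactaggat
Mmp20 (chr9:7628131-7628230, plus strand): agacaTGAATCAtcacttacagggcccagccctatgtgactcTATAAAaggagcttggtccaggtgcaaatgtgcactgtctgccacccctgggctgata
Mmp8 (chr9:7558329-7558428, plus strand): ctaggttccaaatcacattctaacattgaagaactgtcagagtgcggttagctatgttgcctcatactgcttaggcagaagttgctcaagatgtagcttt
Mmp14 (chr14:54431498-54431597, plus strand): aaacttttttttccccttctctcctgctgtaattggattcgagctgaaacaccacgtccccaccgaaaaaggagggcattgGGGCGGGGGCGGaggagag
Timp1 (chrX:20870066-20870165, plus strand): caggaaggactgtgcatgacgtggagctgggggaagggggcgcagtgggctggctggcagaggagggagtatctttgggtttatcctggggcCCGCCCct
Adamts1 (chr16:85803114-85803213, minus strand): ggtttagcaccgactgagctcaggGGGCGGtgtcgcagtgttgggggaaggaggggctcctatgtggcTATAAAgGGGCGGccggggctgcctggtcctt

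The AP-1 motif was found in a window of 8 of the 10 genes of the row (all but Mmp8 and Mmp27), and the TATA motif in 9, against 8.97% and 15.7% of the 27025 genes in the promoter table. Both were present in 8 of 10, against 1.84% of all genes. A gene with several windows was counted if any of them matched. Mmp12 and Mmp7 each also had a window with neither motif. In Mmp12 that was the window at 7344147 to 7344446, and the matches came from the window at 7347124 to 7347423. In those 8 genes the TATA motif began 19 bases after the start of the AP-1 motif in Mmp13, the shortest distance, 34 bases in Mmp10, 39 in Mmp3 and 45 in Mmp1a. Not every TATA match lay upstream. In Mmp12 it began at base 5, counted from the annotated start. In Mmp8 it began 3 bases before the start on the other strand, so it runs past the printed stretch and is not marked there. Of the 43 matched genes outside the row, 5 held the AP-1 motif, 6 the TATA motif and 1 both. No gene of the row held the GC-box motif, compared with 27 of those 43 and 38.2% of all genes. A match is a stretch of letters and not a shown binding site.

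The RNA levels of the row ran from 0 upwards, also among the genes with both motifs. Mmp3, stromelysin-1, which cuts proteoglycans and activates other MMPs, had 4.92, 5.41 and 4.17 RPKM. Mmp10, stromelysin-2, had 1.92, 2.06 and 1.92. Mmp13, the main interstitial collagenase of rodents, had 1.26, 1.15 and 1.60. Mmp3 was the highest of the row in each library, at 2.45 ± 0.250 times Mmp10. Mmp12, the elastase best known from macrophages, had 0.360, 0.423 and 0.665, and Mmp8, the neutrophil collagenase, 0.382, 0.383 and 0.229. Mmp27 stood at 0.113 ± 0.0389, Mmp1b at 0.0574 ± 0.0305 and the matrilysin gene Mmp7 at 0.00946 ± 0.0164. Mmp1a and the tooth enamel protease gene Mmp20, printed above with both motifs, were listed at 0 in all libraries, where 3 reads would have given at most 0.0514 and 0.0316. Mmp1a and Mmp1b are 90.5% identical over 1453 bases, and Mmp1b shares 160 identical bases with Mmp12. Mmp1b (minus strand, from 7368239) and Mmp12 (plus strand, to 7369499) also overlap on the chromosome. Whether the 160 bases lie in that overlap was not examined. Reads of these genes may have been assigned unevenly.

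**Figure D2:**
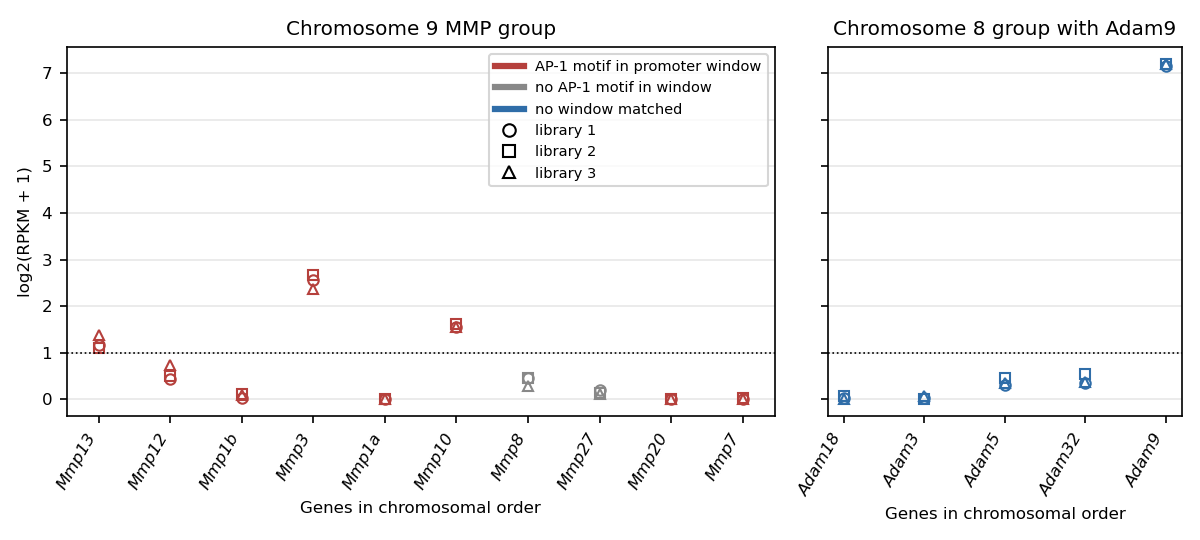
Level, as log2(RPKM + 1), of neighbouring genes in chromosomal order in the 3 libraries. Colour shows the AP-1 motif in any promoter window of the gene, and the dotted line is an RPKM of 1. In the chromosome 9 row only Mmp13, Mmp3 and Mmp10 lie above the line, and in the chromosome 8 group Adam9 stands alone.

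Of the MMPs outside the row that are neither membrane-type enzymes nor gelatinases, Mmp23 and Mmp11 were the highest. Mmp23, an atypical member without the hemopexin domain, had 14.3, 15.6 and 13.7 RPKM. Mmp11, stromelysin-3, which unlike most secreted MMPs is activated inside the cell by furin, had 11.3, 11.5 and 10.7. Mmp19 had 6.73, 6.74 and 7.02. The values of Mmp11 lay above those of Mmp19 in every library. Mmp19 shares 22.3% of its exon bases with Tmem198b on the other strand, at 6.78, so its level is uncertain if strand was not used in counting. Mmp28 at 0.842 ± 0.181 fell just short of detection, and Mmp21 had 0.0155 ± 0.0179.

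The ADAM genes split into somatic sheddases and a large group that was nearly silent. 7 of the 9 somatic sheddase genes were detected, with a median of 3.87 ± 0.03 on the log2(RPKM + 1) scale. Adam9 (chromosome 8, 24949611 to 25016927), a widely expressed sheddase with an integrin-binding domain, led with 141, 146 and 146 RPKM and alone made up 49.0% ± 0.212 of the ADAM sum. Adam19, known from heart and neural development and neuregulin shedding, had 58.1, 58.9 and 58.8, and Adam12, found in regenerating muscle and in activated stroma, had 29.8, 30.9 and 32.0. Adam10, the sheddase of Notch receptors and cadherins, had 29.9, 30.5 and 31.0. Adam12 and Adam10 overlapped. Adam17, which releases TNF and ligands of the EGF receptor, had 5.05, 4.94 and 5.46, so that Adam10 stood at 5.92 ± 0.253 times Adam17. Per length of the longest annotated coding transcript that ratio was 3.96 ± 0.169. Adam15 had 13.3, 13.7 and 13.9, and the leukocyte-associated Adam8 had 2.40, 2.20 and 2.82. Adam33 at 0.355 ± 0.0540 and Adam28, known from lymphocytes, at 0.0273 ± 0.0258 were not detected.

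Of the ADAMs without protease activity that act in adhesion, mainly in the nervous system, Adam23 had 5.25, 5.75 and 5.52 RPKM and Adam22 1.499, 1.57 and 1.37, while Adam11 stayed at 0.304 ± 0.0629. The remaining 21 ADAM genes, most of them known from testis and sperm, had no detected member. 11 of the 21 were listed at 0 in all libraries, and the highest were Adam4 at 0.404 ± 0.179 and Adam1a at 0.361 ± 0.0934. Adam4 had 0.610, 0.291 and 0.312, from 44, 24 and 25 inferred reads. Adam9 ends a group of 5 genes on chromosome 8 (24602246 to 25016927), in which Adam32 had 0.342 ± 0.0988, Adam5 0.294 ± 0.0687, Adam3 0.0256 ± 0.0266 and Adam18 0.0220 ± 0.0265. Adam9 was 321 to 507 times its neighbour Adam32.

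ADAMTS genes of the proteoglycan-cutting kind were the main ADAMTS RNAs. Adamts5, the principal aggrecanase of mouse cartilage, had 74.3, 78.9 and 75.3 RPKM, and Adamts1, which cleaves versican and aggrecan and binds VEGF, had 59.4, 62.4 and 57.9. They lie close together on chromosome 16 (85793827 to 85901828), Adamts5 being 1.27 ± 0.0260 times Adamts1, and both are high in all libraries. Adamts9 had 10.7, 10.1 and 10.1, and Adamts4, the other main aggrecanase, 6.505, 6.58 and 6.54. Adamts5 thus stood at 11.6 ± 0.305 times Adamts4. Adamts15, Adamts8 and Adamts20 remained at 0.317 ± 0.0912, 0.187 ± 0.0863 and 0.0912 ± 0.0490. Adamts15 and Adamts8 are also neighbours, on chromosome 9, and both were low.

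Of the enzymes that remove the amino-terminal propeptide of fibrillar procollagens, Adamts2 had 40.2, 42.6 and 40.6 RPKM and Adamts14 7.02, 7.56 and 6.23. Adamts2 was 5.96 ± 0.481 times Adamts14, or 7.65 ± 0.617 times per length of the longest annotated coding transcript, and Adamts3 stayed at 0.658 ± 0.0639. Adamts12 and Adamts7, a related pair that cleaves the matrix protein COMP, were unequal, Adamts12 having 36.2, 37.0 and 35.8 and Adamts7 5.99, 5.55 and 4.95. Adamts10, which binds fibrillin, had 11.4, 11.3 and 9.52, and its relative Adamts6 had 6.83, 6.05 and 5.90. In both, library 1 was the highest and library 3 the lowest. Adamts16, Adamts17, Adamts18 and Adamts13, the protease of von Willebrand factor, lay between 0.00185 and 0.0235, and Adamts19 was listed at 0. Among the ADAMTS-like genes Adamtsl5 had 2.75, 2.67 and 2.75, Adamtsl1 2.14, 2.32 and 2.42, and Adamtsl4, which in humans is needed for the anchoring of the lens, 1.67, 1.84 and 1.76. Adamtsl3 had 0.545 ± 0.0963 and Adamtsl2 0.0449 ± 0.0141.

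Summed over each family, inhibitor RNA exceeded MMP RNA. The TIMP sum was 771, 732 and 763 RPKM in libraries 1, 2 and 3, and the MMP sum was 355, 366 and 347. The ratio was 2.17, 1.997 and 2.20 (2.12 ± 0.110), and without Mmp14 it was 7.13 ± 0.332, since Mmp14 made up 70.2% ± 0.262 of the MMP sum. The ADAM sum was 295 ± 5.46, the ADAMTS sum 261 ± 7.67 and the ADAMTS-like sum 7.36 ± 0.231. All protease and ADAMTS-like genes together came to 920 ± 18.0, more than the TIMP sum of 755 ± 21.01 in each library. These are ratios of RNA levels per gene-model length, and the model length matters here. When levels were taken per length of the longest annotated coding transcript, Mmp14 stood at 461 ± 14.0, above Timp1 at 349 ± 18.2 in every library. Timp3 stood at 364, 353 and 357 and Timp1 at 367, 331 and 348 in libraries 1, 2 and 3, so that Timp1 was the higher in library 1, Timp3 in the others, and their ranges overlapped. On that scale the TIMP to MMP ratio became 1.57 ± 0.0789.

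**Figure D3:**
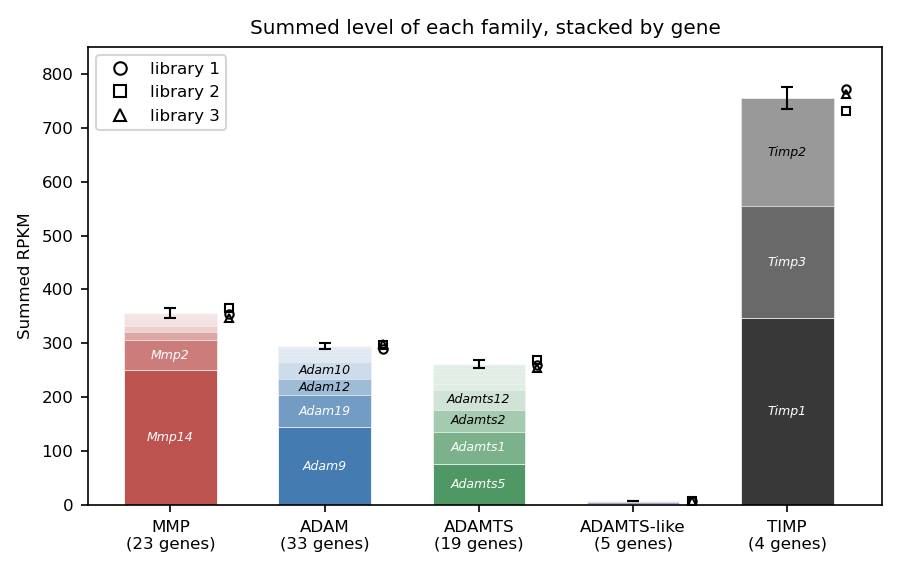
Summed RPKM of each family, stacked by gene (mean of 3 libraries, error bar SD of the sum, symbols for the libraries). The TIMP bar reaches 755 and the MMP bar 356, of which Mmp14 is the largest block.

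The promoter windows also differed in CG dinucleotides, which are frequent in promoters of widely expressed genes. The 23 detected genes with a window held a median of 23 CG dinucleotides in 300 bases, and the 30 undetected ones 2.5, where all genes of the table had 8. Outside the chromosome 9 row the medians were 24 for 20 detected and 2 for 23 undetected genes. The undetected ones include members of the large ADAM group without a detected gene, which ran from Adam21 with 0 to Adam1a with 4. Other undetected genes went both ways: Adamts3 and Adamts20 had 41, Mmp15 22 and Mmp28 20, against 2 in Mmp21, Adamts13 and Timp4. The same split over all genes of the table was not made. Of the 4 highest genes, Timp1 had 8, Mmp14 10, Timp3 24 and Timp2 25, and none of these windows held the AP-1 or the TATA motif. The highest counts were those of Adamtsl3 with 46, Mmp24 with 44 and Adamts14 with 44, of which only Adamts14 was detected. Among the 20 detected genes outside the row that had a window, Adamts1 alone held the TATA motif, visible in its printed sequence beside GC-box motifs.

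**Figure D4:**
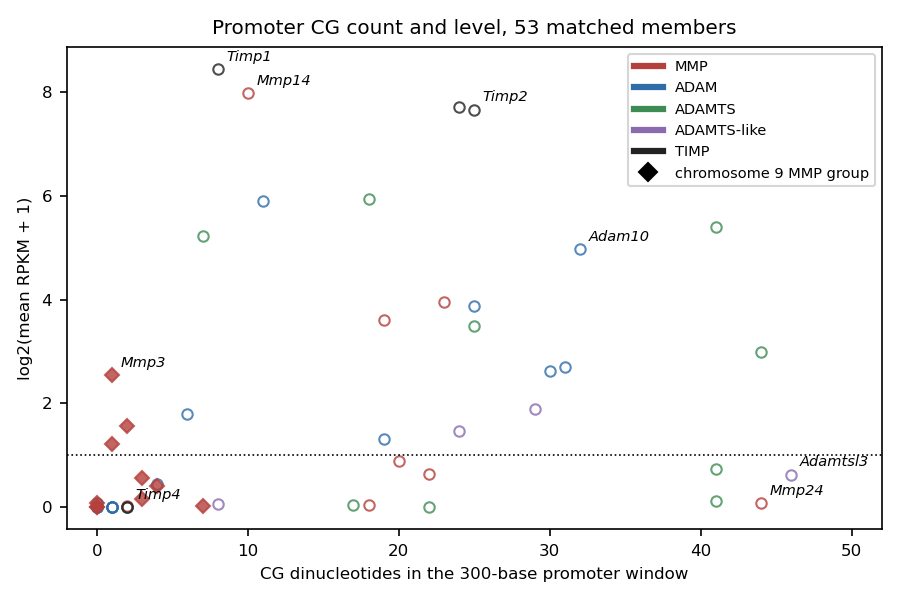
CG dinucleotides in the 300-base promoter window (the largest count where a gene has several windows) against log2(mean RPKM + 1) for 53 genes; the dotted line is an RPKM of 1. The chromosome 9 row, drawn as diamonds, sits at 7 or fewer, while Timp1 and Mmp14 reach the top at 8 and 10.

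Genes known to act with these proteases were measured beside them. All 4 proprotein convertase genes, whose products remove the prodomain of membrane-type MMPs, ADAMs and ADAMTS proteases, were detected: Furin at 11.0 ± 0.109, Pcsk6 at 8.74 ± 0.346, Pcsk7 at 6.29 ± 0.694 and Pcsk5 at 2.52 ± 0.284. 8 of 9 regulators and surface partners were detected, led by the TIMP1-binding tetraspanin gene Cd63 at 239.9 ± 4.72, the MMP inducer Bsg at 193 ± 4.63 and the clearance receptor Lrp1 at 136 ± 2.75. Reck, a membrane-anchored MMP inhibitor, had 3.61 ± 0.165, far below the detected TIMPs, and the plasma inhibitor A2m 0.0277 ± 0.0202. Of 9 partners of ADAM10 and ADAM17, 6 were detected, among them the ADAM17 cofactors Frmd8 at 7.37 ± 0.125, Rhbdf1 at 7.21 ± 0.0917 and Rhbdf2 at 3.25 ± 0.403 and the ADAM10 tetraspanins Tspan5 at 6.32 ± 0.347, Tspan17 at 5.12 ± 0.137 and Tspan14 at 3.83 ± 0.111. Tspan15, Tspan33 and Tspan10 were not, at 0.325 ± 0.0416, 0.179 ± 0.0511 and 0.

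Substrates were unevenly represented. 7 of 10 shed substrates were detected, led by Vcam1 at 56.6 ± 2.36, Notch2 at 18.9 ± 0.369, and the EGF receptor ligand genes Hbegf at 10.8 ± 0.814 and Ereg at 6.83 ± 0.328, whereas Tnf, the substrate after which ADAM17 was first named, had 0.170 ± 0.143 and the ligand gene Areg 0.0899 ± 0.0224. Of 10 matrix substrates and partners 5 were detected, with the thrombospondin gene Thbs1 at 1872 ± 47.2, Fbn1 at 201 ± 5.74, the procollagen C-proteinase gene Bmp1 at 84.8 ± 1.12, versican (Vcan) at 16.2 ± 0.691 and Fbn2 at 1.64 ± 0.0517. The aggrecan gene Acan had 0.0491 ± 0.00781, Comp 0.0609 ± 0.0172, Vwf 0.0209 ± 0.00769 and the lowest of the list, Ncan, 0.00703. Among these substrates, versican was present while aggrecan, the substrate that gave the aggrecanases their name, was not detected.

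The 3 libraries differed little in these genes. The median SD between libraries of the 34 detected genes was 0.05 on the log2(RPKM + 1) scale, against 0.06 for the 10447 detected protein-coding genes, and their median coefficient of variation was 3.85% against 4.95%. The 34 genes had a higher median level, 10.5 against 6.55 RPKM, which bears on counting error. None of the 34 had a library at least 1.5 times another, compared with 2.44% of protein-coding genes of mean RPKM 1 or more. With a ratio of 5 to 4, 3 of the 34 (8.82%) did, compared with 12.4% of those genes. These were Mmp13 with a ratio of 1.40, Mmp3 with 1.30 and Adam8 with 1.28, all of modest read number.

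**Figure D5:**
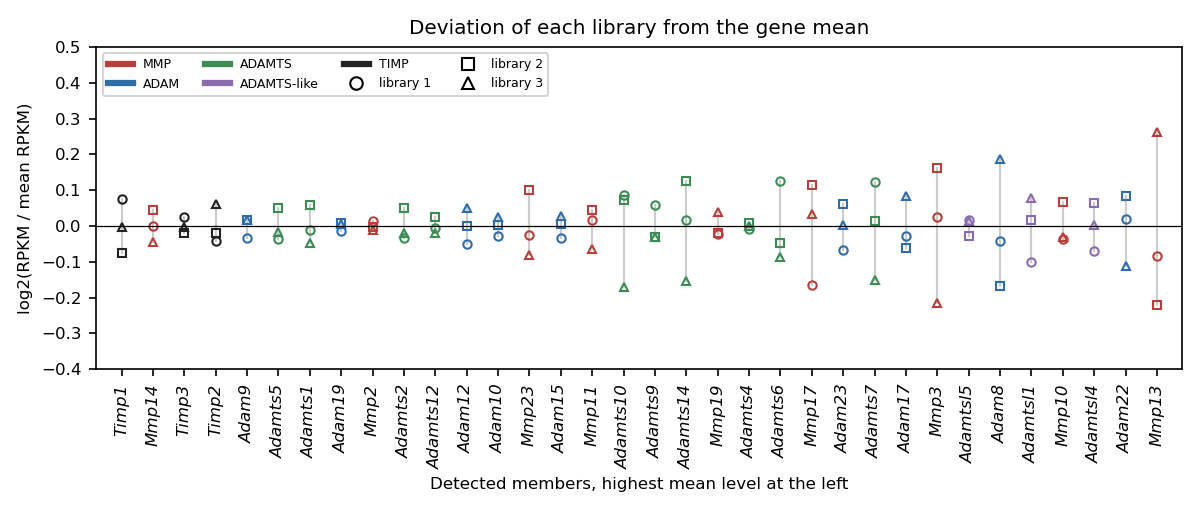
Deviation of each library from the gene's mean RPKM, on a log2 scale, for the 34 detected genes from highest to lowest mean. The widest spreads are those of Mmp13, Mmp3 and Adam8, and Mmp2, Adam19 and Adamts4 show almost none.

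In Mmp13 and Adam8 library 3 was the highest and library 2 the lowest, and in Mmp3 library 2 was the highest and library 3 the lowest. The 95% Poisson intervals of the inferred reads (exact, counting error only) ran for Mmp3 from 4.84 to 6.04 in library 2 and from 3.66 to 4.74 in library 3, which do not overlap. For Mmp13 they ran from 0.932 to 1.39 in library 2 and from 1.34 to 1.89 in library 3, which overlap. For Adam8 they ran from 1.98 to 2.46 in library 2 and from 2.55 to 3.10 in library 3, which do not. Separate intervals were not particular to these genes. Those of Timp1 ran from 358 to 372 in library 1 and from 322 to 335 in library 2. Below the detection threshold, Mmp12 had 75, 101 and 154 inferred reads. Its intervals ran from 0.283 to 0.450 in library 1 and from 0.563 to 0.777 in library 3. Mmp12 was not alone in this among the undetected genes, and the order of the libraries differed between them. In Adamts15 the intervals ran from 0.331 to 0.467 in library 2 and from 0.170 to 0.273 in library 3. In Mmp28 they ran from 0.496 to 0.801 in library 1 and from 0.813 to 1.16 in library 2. The summed level of the 9 macrophage markers was 43.3, 41.4 and 43.1 in libraries 1, 2 and 3, led by Lyz2 at 26.9, 24.5 and 27.2, with Cd163 at 0.0139 ± 0.0241. The 4 general leukocyte markers, which summed to 0.994, 1.249 and 1.49, had the same order of libraries as Mmp12. That sum was mostly Itgam, at 0.850, 1.03 and 1.36. Its other members did not share the order: Ptprc had 0.144, 0.133 and 0.131, and Cd3e and Cd79a were above 0 in library 2 only. The 6 neutrophil markers summed to 0.108, 0.0853 and 0.155. The part of these cells in the level of Mmp12 was not tested. Library 2 was the highest in 17 of the 34 genes, library 1 in 8 and library 3 in 9, while it was the highest in 33.4% of detected protein-coding genes.

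Some levels carry limits from the gene models. 10 of the 34 detected genes share exon bases with another gene, all on the opposite strand, 6 of them over 5% of their exon bases, and whether counting used the strand is not given in the sources used here. Besides Mmp19 and Timp3 these include Adam15, with 20.6% shared with 4731419I09Rik at 0.366, and Adam17, with 4.35% shared with Iah1 at 17.9. Per longest coding transcript, Adam23 stood at 2.79 times its RPKM, Adamtsl5 at 2.41 times, Adam15 at 2.07 times and Adamts10 at 2.04 times. No detected gene had a stretch of at least 100 bases that was 90% or more identical to another of the 84.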

How the data were processed

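Gene expression was measured by RNA sequencing in 3 libraries of cultured adipose MSCs. Per the labels' protocols, RNA was purified with the miRNeasy kit and libraries were made with the TruSeq V2 kit. The authors deposited 1 table of RPKM values per gene and library. Per the submitters' processing notes, the genome build was mm10. Aligner, counting tool and annotation: not given in the sources used here. All levels rest on RPKM alone.

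Genes were selected by biotype and symbol. Role lists, partner lists and markers were chosen with earlier results of these data known. Coordinates, exon-union lengths and longest coding transcripts came from GENCODE M21 (all 84 genes matched) and promoters from RefSeq. Of the table's 43346 identifiers, 42462 matched. Read totals were inferred as those that made low values (under 10 reads) whole, within 0.05 of a read in 84.5% to 85.2% of them. With mates counted singly the true number of fragments would be lower. Intervals are exact 95% Poisson intervals, and the floor is 3 reads. Spread was taken on log2(RPKM + 1), a scale that compresses low values. The rule named every detected gene, the 2 highest undetected genes of each role (those at 0 named or counted), up to 6 highest and the lowest of each partner list, and genes with a library apart. Any other gene was named after its values were seen. Scripts were checked on simulated data. Similar sequences among the 84 genes were found with BLAST 2.17.0, figures were drawn with matplotlib 3.10.9, and intervals came from scipy 1.17.1 under Python 3.11.15, with tables handled in pandas 2.3.3 and numpy 2.4.6. The alternatives were other thresholds, pseudocounts, filters and scalings and leaving out each library; levels per longest coding transcript were added after seeing the data.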

Additional observations from a re-analysis of the deposited data

How the results depend on the processing

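No paired analysis was possible because there is a single group. Depth limits the lowest detected genes most (95 inferred reads in the smallest case), and the SDs rest on 3 libraries. The count of detected genes, 34, was within 1.5 times of that under every alternative run (27 with TPM over all genes, 48 with TPM over protein-coding genes). The share of all protein-coding genes was not taken under these alternatives. Leaving out each library gave 34 detected genes and 0 genes with a library 1.5 times another, and the median SD between libraries, 0.0497, then ranged from 0.0416 to 0.0466. That SD was 0.0552 with a pseudocount of 0.1, 0.0474 above an RPKM of 5 and 0.0780 with TPM over protein-coding genes. TPM values over protein-coding genes are larger than RPKM, since the RPKM of those genes summed to 197547, 197401 and 198488 in libraries 1, 2 and 3. The cut of 1 and the pseudocount of 1 were kept, so genes of lower RPKM passed the cut. The cause of the differences in SD was not tested. The number of genes with a library apart became 3 at a ratio of 5 to 4, 29 without the filter on low values and 8 with that TPM. For the counts of 29 and 8 the share of all protein-coding genes was not taken, so they show nothing particular to these genes.

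Median log2 levels of MMP, ADAM, ADAMTS and ADAMTS-like genes were -0.81, -2.87, 2.48 and 0.89 with a pseudocount of 0.1, and 1.39, 1.79, 2.98 and 1.59 with genes under a mean RPKM of 0.1 left out. With TPM over protein-coding genes they were 1.76, 0.25, 4.84 and 3.30, and 10.01 for TIMP. The sums on that scale were 1801 for MMP, 1492 for ADAM, 1320 for ADAMTS, 37.2 for ADAMTS-like and 3819 for TIMP genes.

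Per longest coding transcript, an alternative added after seeing the data, the medians were 0.80 for MMP, 2.89 for ADAMTS and 8.09 for TIMP genes. The sums were 585 for MMP, 348 for ADAM, 311.5 for ADAMTS, 12.8 for ADAMTS-like and 918 for TIMP genes. The leading gene then held 78.7% of the MMP, 42.3% of the ADAM, 24.4% of the ADAMTS, 51.3% of the ADAMTS-like and 39.0% of the TIMP sum. By mean the leading TIMP gene was Timp3 on that scale, though Timp1 was higher in library 1. The Timp2 to Mmp14 ratio became 0.459. The TIMP to MMP ratio was 1.57 on that scale. In RPKM without Mmp14 it was 7.13.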
